A study of Mus musculus with 19 samples.

Results

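The enzymes of de novo fatty acid synthesis, the route that builds fatty acids from cytosolic acetyl-CoA, were followed in bulk liver RNA-seq from 19 mice. They were taken by symbol as Acly, Acss2, Acaca, Acacb, Fasn, Scd1, Elovl6, Me1, Slc25a1 and Thrsp, which are 10 of the 55836 genes in the count table. The rule is a list of symbols, drawn up with earlier results of these data known. All 10 passed the filter on low counts, as did 13597 genes in all. The mice were wild-type (WT) C57BL/6 males procured at 8 weeks of age, all labelled as a single batch, B1. A control diet labelled chow (CD, 10 kcal% fat with matching sucrose) or a MASH diet (MD, with 2% cholesterol, fat at 40 kcal% and fructose at 20 kcal%) was fed freely for 8 weeks. MASH stands for metabolic dysfunction-associated steatohepatitis, an inflamed fatty liver. Polyethylene (PE) microplastic particles were gavaged at 2 mg per mouse per day through the same 8 weeks in 0.1% Tween 20 in water, and vehicle (Veh) mice received the Tween 20 solution alone. There were 4 mice in CD + Veh and 5 in each of MD + PE, MD + Veh and CD + PE, with 1 library per mouse. Mice of a group were housed together, so a cage and a group cannot be told apart. The time of day and the feeding state at tissue collection are not given in the sources used here, and both are known to move these genes in liver.

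In the lipogenic route, the citrate carrier Slc25a1 brings citrate out of the mitochondrion, and ATP citrate lyase (Acly) splits it into oxaloacetate and acetyl-CoA, while Acss2 makes acetyl-CoA from acetate. Acetyl-CoA carboxylase makes malonyl-CoA in a cytosolic form (Acaca) and in a form at the outer mitochondrial membrane (Acacb), whose product inhibits the entry of fatty acids into mitochondria. Fatty acid synthase (Fasn) joins these units into palmitate with NADPH supplied in part by malic enzyme (Me1), Elovl6 lengthens palmitate to stearate, Scd1 places the double bond that gives oleate, and Thrsp is a small nuclear and cytosolic protein induced with the enzymes. In liver, insulin acting through SREBP-1c and glucose acting through ChREBP are known to raise these genes together, and fasting and dietary polyunsaturated fat are known to lower them.

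Promoter sequence is shown for 3 members, because the 10 genes moved together in most comparisons and because SREBP binds sterol regulatory elements (SRE). The windows run from 250 bases before to 50 bases after the start of the Ensembl canonical transcript (GENCODE vM39, build GRCm39), and were searched on both strands for the SRE letters TCACNCCAC and for the E-box CACGTG. These letters do not overlap each other. Capitals mark the matches on the strand of the gene. The Acss2 window is chr2:155359618-155359917 on the plus strand, the Acaca window chr11:84063698-84063997 on the plus strand and the Scd1 window chr19:44396291-44396590 on the minus strand.
Acss2: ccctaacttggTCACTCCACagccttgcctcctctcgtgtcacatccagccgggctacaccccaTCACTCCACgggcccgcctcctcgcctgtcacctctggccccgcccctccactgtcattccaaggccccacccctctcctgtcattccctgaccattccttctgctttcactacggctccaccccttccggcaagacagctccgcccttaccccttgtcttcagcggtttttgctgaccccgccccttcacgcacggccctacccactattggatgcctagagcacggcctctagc
Acaca: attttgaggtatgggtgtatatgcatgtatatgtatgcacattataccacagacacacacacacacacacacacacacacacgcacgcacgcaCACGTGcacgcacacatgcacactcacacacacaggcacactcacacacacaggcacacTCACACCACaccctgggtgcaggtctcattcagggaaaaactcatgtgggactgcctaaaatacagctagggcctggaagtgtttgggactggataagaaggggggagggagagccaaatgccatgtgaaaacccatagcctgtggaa
Scd1: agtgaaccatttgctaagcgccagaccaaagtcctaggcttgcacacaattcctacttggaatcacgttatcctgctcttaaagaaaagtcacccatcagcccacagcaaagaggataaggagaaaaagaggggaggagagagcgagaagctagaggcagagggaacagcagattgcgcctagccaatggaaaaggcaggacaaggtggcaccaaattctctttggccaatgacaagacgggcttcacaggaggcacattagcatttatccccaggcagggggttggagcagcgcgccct

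The SRE letters occurred in 2 of the 9 member windows reported, 2 times in Acss2 and once in Acaca, and in 1.29% of 13454 windows of the same length around the genes tested. The E-box letters occurred in 2 of the 9, Acaca and Slc25a1, and in 9.68% of all windows. In Acaca both matches lay in or beside a long run of CA repeats. The CCAAT box (CCAAT) was found in 5 of the 9 member windows against 39.6% of all, and the GC box (GGGCGG) in 3 of the 9 against 54.4%. Scd1, printed because its response to the diet differed in size from that of the other members, held neither the SRE nor the E-box letters in this window but 2 CCAAT boxes. The windows of Acly, Acacb, Elovl6, Me1 and Thrsp also held neither, and all of these genes were lower in MD + Veh than in CD + Veh. A match describes the letters alone and is neither a binding site nor a cause, and some of these genes have other start sites that were not searched.

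Library depth was 10398820 to 15456729 counts. The PE libraries held 10398820 to 12757617 counts and the vehicle libraries 13406037 or more. Every member had at least 127 counts in every library, so that counting error was small beside the spread between mice. The libraries carry numbers from 39 to 57 that run by group. Libraries 39 to 45 (CD + Veh and MD + Veh replicates 1 to 3) held 1088 to 1690 counts of the ribosomal protein pseudogene Rps6-ps4, and libraries 46 to 57 (MD + Veh replicates 4 and 5 and both PE groups) held 0, so the libraries fall into 2 sets by this gene. All CD + Veh libraries are on one side and all CD + PE and MD + PE libraries on the other. For CD + PE against CD + Veh, the library set and the PE therefore cannot be told apart. For MD + PE against CD + Veh, the library set cannot be told apart from the MD and the PE together. The hepatocyte genes Alb, Apoa1, Ttr, Cps1, Hnf4a, Serpina1c, Fgb and Ahsg were all tested and summed to 84006 to 98864 CPM (counts scaled to library size) in CD + Veh and 53867 to 72358 in MD + PE. Their sum was 73917 to 103260 CPM in CD + PE and 57413 to 73045 CPM in MD + Veh. Skeletal muscle genes summed to 3008 CPM in MD + Veh replicate 1, far above the 0.435 to 389.8 CPM of the other 18 libraries. Without that library 9 members were among 626 genes called lower with the MD and 8 among 72 with PE on the MD. Intestinal epithelium genes summed to 555 to 4093 CPM. In bulk tissue, fewer cells of a type and less RNA per cell cannot be told apart.

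All 10 genes were lower in CD + PE than in CD + Veh, and 9 were lower in MD + Veh than in CD + Veh. In MD + PE all 10 had a lower mean than in MD + Veh, and 9 of these falls passed the threshold given next. MD + PE held the lowest mean of every member. A gene was called when its Benjamini-Hochberg adjusted p, from edgeR's quasi-likelihood test over all 13597 genes, was below 0.05 and its log2 fold change was at least 0.38 in size. The calls of lower level covered 10 of 10 members against 1.7% of all genes in CD + PE against CD + Veh, and 9 of 10 against 5.63% in MD + Veh against CD + Veh. They covered 9 of 10 against 0.934% in MD + PE against MD + Veh, 8 of 10 against 2.92% in MD + PE against CD + PE, and 10 of 10 against 8.55% in MD + PE against CD + Veh. No member was called higher in these comparisons, where 1.22%, 4.74%, 0.147%, 1.69% and 6.02% of all genes were, in the same order. Several of these comparisons share a control group and are not independent of one another.

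The median log2 fold change of the 10 members was -1.59 for PE on the CD, -1.51 for the MD with vehicle, -1.08 for PE on the MD, -1.0 for the MD with PE and -2.76 for both against neither. The median over all genes tested lay between -0.019 and 0.0064 in these comparisons. Every library of the first group lay below every library of the second for 10 members in CD + PE against CD + Veh (4.35% of all genes) and for 8 in MD + Veh against CD + Veh (8.88% of all genes). It did so for 9 members in MD + PE against MD + Veh (2.49% of all genes) and for 6 in MD + PE against CD + PE (3.96% of all genes). The members together took 2.51 to 4.47% of all counts in the vehicle libraries on the CD and 2.44 to 3.58% in those on the MD. With PE they took 0.921 to 2.09% on the CD and 0.927 to 1.5% on the MD.

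**Figure D1:**
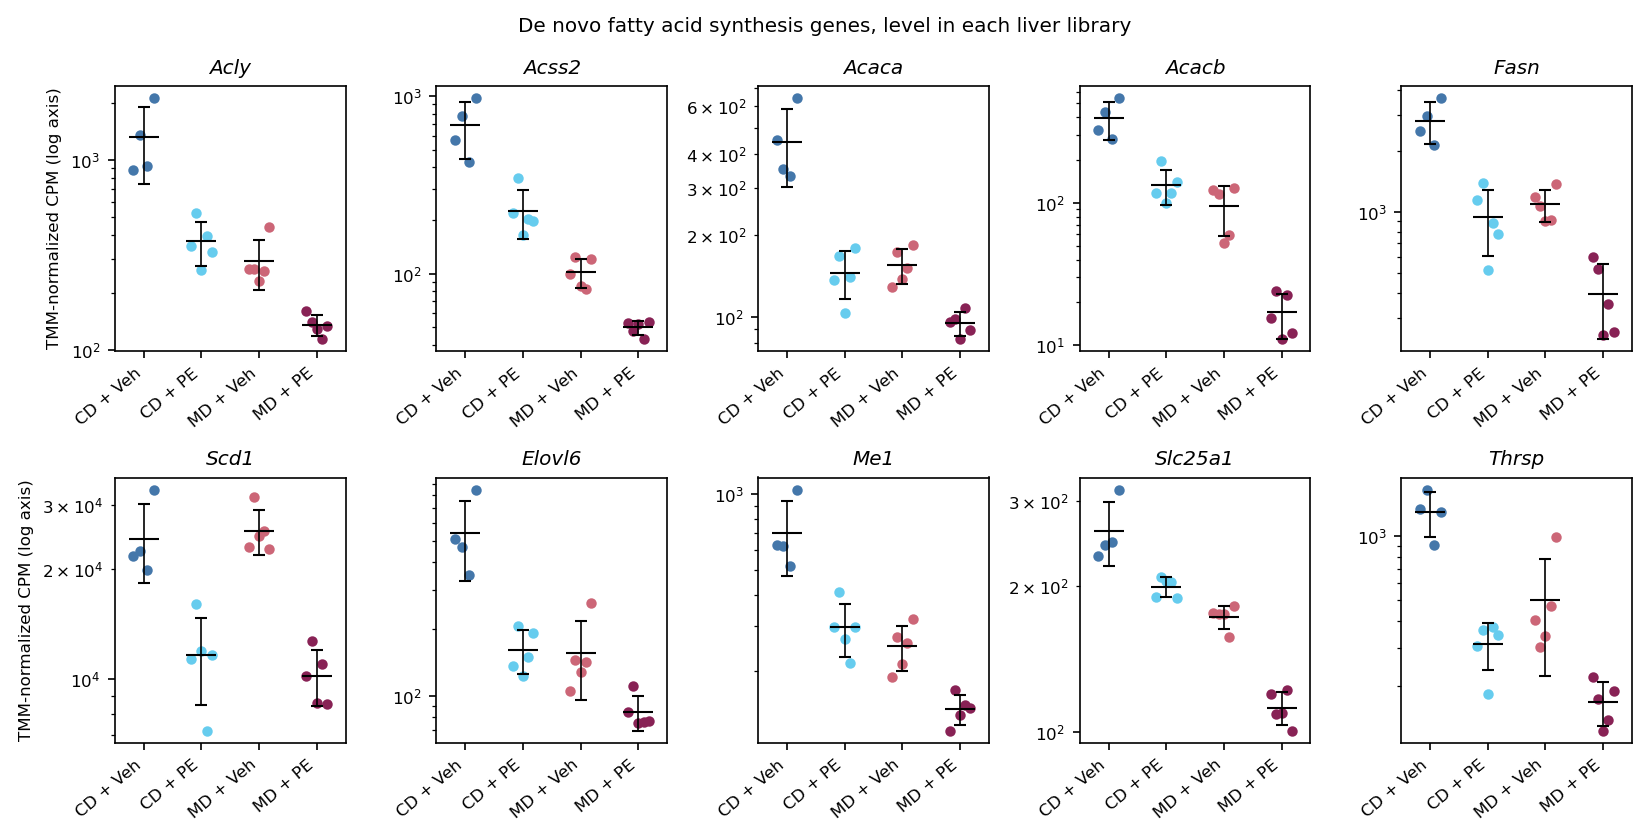
TMM-normalized CPM of each of the 10 genes (log axis, own range per panel) in each library of the 4 groups; points are libraries, the horizontal bar and whiskers are the mean and SD. The CD + Veh mean is the highest in every panel but that of Scd1, where MD + Veh sits at the level of CD + Veh, and the MD + PE mean is the lowest in every panel.

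The supply of cytosolic acetyl-CoA comes first. Acly was at 885, 1350.0, 923 and 2111 CPM in the 4 CD + Veh libraries and at 350.4, 524, 263, 399 and 328 CPM in the 5 CD + PE libraries. It was at 267, 266, 229.7, 261 and 443 CPM in MD + Veh and at 160.2, 139.7, 128, 114 and 133 CPM in MD + PE. No library of CD + PE or MD + Veh reached the lowest CD + Veh library, these 2 groups overlapped each other, and the MD + PE libraries lay below all others. Acly fell by 1.82 on the log2 scale (SE 0.24, 3.53-fold lower, adjusted p = 0.000663) with PE on the CD, and fell by 2.17 on the log2 scale (SE 0.24, 4.49-fold lower, adjusted p = 8.73e-06) with the MD. With PE on the MD it fell by 1.12 on the log2 scale (SE 0.23, 2.17-fold lower, adjusted p = 0.0183), and it was 9.75-fold lower in MD + PE than in CD + Veh. The call with PE on the MD was lost without MD + PE replicate 3 or 4 (highest adjusted p = 0.0596).

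Acss2, the acetate-using counterpart, had the largest fall of the 10 with the MD. Its levels were 564, 777, 426 and 978 CPM in CD + Veh, 219.6, 348, 165, 204 and 199.7 CPM in CD + PE, 99.8, 124, 86, 82.2 and 121 CPM in MD + Veh and 53.2, 47.7, 52, 42.9 and 53.8 CPM in MD + PE. The 4 groups did not overlap and stood in this order, so for Acss2 the MD libraries were below the CD + PE libraries. Acss2 fell by 2.74 on the log2 scale (SE 0.22, 6.7-fold lower, adjusted p = 2.37e-07) with the MD and fell by 1.6 on the log2 scale (SE 0.21, 3.02-fold lower, adjusted p = 0.000663) with PE on the CD. It fell by 1.04 on the log2 scale (SE 0.21, 2.05-fold lower, adjusted p = 0.0156) with PE on the MD, a call lost without MD + PE replicate 4 (adjusted p = 0.0548). The amount of Acss2 per Acly was 0.534 ± 0.0869 (SD, n = 4) in CD + Veh and 0.607 ± 0.0578 in CD + PE. It was 0.36 ± 0.073 in MD + Veh and 0.372 ± 0.0339 in MD + PE (n = 5 each). Its means were lower in both MD groups than in both CD groups, though MD + Veh replicate 2 lay just above the lowest CD + Veh library. The ratio was chosen after the values were seen and was not tested.

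Slc25a1, the citrate carrier, varied least between mice. It was at 231, 242, 247 and 316 CPM in CD + Veh, 189, 209, 205, 204 and 188 CPM in CD + PE, 176, 175, 175, 157 and 181 CPM in MD + Veh and 119.8, 109, 109, 122 and 100.5 CPM in MD + PE. The 4 groups formed 4 steps without overlap. The coefficient of variation was 4.74% to 7.78% in the 3 groups of 5, where that of the other members ran from 9.17% to 56%. Slc25a1 fell by 0.59 on the log2 scale (SE 0.083, 1.5-fold lower, adjusted p = 0.000109) with the MD and fell by 0.62 on the log2 scale (SE 0.079, 1.54-fold lower, adjusted p = 0.000611) with PE on the MD. With PE on the CD it fell by 0.38 on the log2 scale (SE 0.083, 1.3-fold lower, adjusted p = 0.0143), which passed the minimum fold change by a margin in the third decimal. That last call was lost in 7 fits that each left out 1 library (CD + Veh replicate 4, MD + Veh replicates 1 and 5, CD + PE replicates 1, 4 and 5, or MD + PE replicate 4), where the log2 fold change ran from -0.42 to -0.26 over all such fits.

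Me1, which yields NADPH while turning malate into pyruvate, was at 627, 625, 520.4 and 1043 CPM in CD + Veh and 297, 409, 266, 214 and 297 CPM in CD + PE. It was at 188, 271, 212, 258 and 319.8 CPM in MD + Veh and 116, 168, 133, 146 and 142 CPM in MD + PE. CD + PE and MD + Veh overlapped each other and both lay below CD + Veh and above MD + PE. Me1 fell by 1.25 on the log2 scale (SE 0.20, 2.37-fold lower, adjusted p = 0.00176) with PE on the CD, and fell by 1.49 on the log2 scale (SE 0.20, 2.82-fold lower, adjusted p = 5.6e-05) with the MD. With PE on the MD it fell by 0.82 on the log2 scale (SE 0.19, 1.77-fold lower, adjusted p = 0.034), a call that was lost in 7 of 19 fits that left out 1 library (CD + Veh replicate 1, MD + Veh replicate 2 or 5, or MD + PE replicate 1, 3, 4 or 5; highest adjusted p = 0.0971).

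The carboxylases Acaca and Acacb fell by similar amounts with PE on the CD, and Acacb fell further than Acaca with PE on the MD. The difference between the 2 genes was not tested. Acaca was at 449, 349.8, 331 and 643 CPM in CD + Veh and 137, 168, 103, 139.6 and 179 CPM in CD + PE. It was at 129, 173, 138, 151 and 183 CPM in MD + Veh and 95.3, 97.5, 82.5, 108 and 88.9 CPM in MD + PE. Acaca in CD + PE overlapped both MD groups, and CD + Veh stood above all. It fell by 1.61 on the log2 scale (SE 0.18, 3.05-fold lower, adjusted p = 0.000159) with PE on the CD, fell by 1.52 on the log2 scale (SE 0.18, 2.86-fold lower, adjusted p = 1.28e-05) with the MD and fell by 0.71 on the log2 scale (SE 0.17, 1.64-fold lower, adjusted p = 0.0389) with PE on the MD. The last call was lost in 11 of 19 fits without 1 library (CD + Veh replicate 1, MD + Veh replicate 1, 2, 3 or 5, CD + PE replicate 4, or any of the 5 MD + PE libraries; highest adjusted p = 0.115), with log2 fold changes of -0.76 to -0.64. Between the PE groups its fall of 0.62 (adjusted p = 0.0297) was lost without CD + PE replicate 5 or MD + PE replicate 2, 3 or 5 (highest adjusted p = 0.0799).

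Acacb was at 327, 434, 280.0 and 545 CPM in CD + Veh and 117, 196, 99.8, 118 and 140.3 CPM in CD + PE. It was at 122, 115, 51.9, 59.6 and 128 CPM in MD + Veh and at only 15.4, 23.9, 11, 22.6 and 12.2 CPM in MD + PE. MD + Veh held 3 libraries near the CD + PE level and 2 (replicates 3 and 4) well below it, and every MD + PE library was lower still. Acacb fell by 1.56 on the log2 scale (SE 0.29, 2.95-fold lower, adjusted p = 0.00515) with PE on the CD, and fell by 2.06 on the log2 scale (SE 0.29, 4.16-fold lower, adjusted p = 0.000105) with the MD. With PE on the MD it fell by 2.48 on the log2 scale (SE 0.29, 5.57-fold lower, adjusted p = 0.000611). From CD + Veh to MD + PE it fell by 4.53 on the log2 scale (SE 0.32, 23.2-fold lower, adjusted p = 1.08e-08), the largest change among the 10 members, and it stood number 25 of 13597 genes from the largest fall.

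The amount of Acacb per Acaca was 0.728, 1.24, 0.847 and 0.848 in the CD + Veh libraries and 0.856, 1.17, 0.965, 0.842 and 0.782 in the CD + PE libraries. It was 0.949, 0.663, 0.376, 0.395 and 0.698 in MD + Veh and 0.162, 0.245, 0.134, 0.209 and 0.137 in MD + PE. The CD groups overlapped, MD + Veh spread from their range downwards, and all MD + PE ratios lay below all others. This ratio, too, was picked after the values were seen, so it is given without a test. Within MD + Veh it was lowest in replicates 3 and 4, which lie on different sides of the library division.

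**Figure D2:**
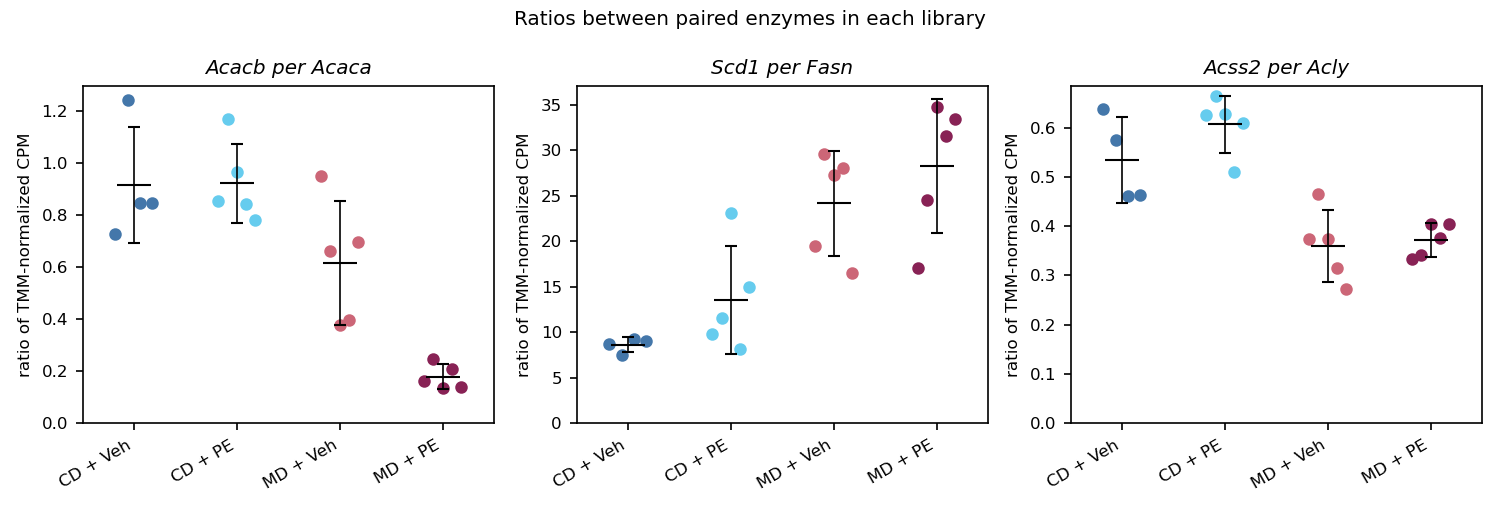
Ratios of TMM-normalized CPM between 2 members in each library, for Acacb per Acaca, Scd1 per Fasn and Acss2 per Acly, by group; points are libraries, bars and whiskers the mean and SD, and axes start at 0. Acacb per Acaca is 0.916 and 0.923 on average in the CD groups and 0.178 in MD + PE, Scd1 per Fasn rises from 8.62 in CD + Veh to 28.2 in MD + PE, and Acss2 per Acly averages 0.534 and 0.607 in the CD groups and 0.360 and 0.372 in the MD groups.

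Fasn, the synthase itself, was at 2501, 2989, 2142 and 3651 CPM in CD + Veh and 1149.6, 1393, 515, 884 and 775 CPM in CD + PE. It was at 1181, 1068, 905, 909.7 and 1378 CPM in MD + Veh and 596, 519.9, 247, 349 and 254 CPM in MD + PE. CD + PE overlapped both MD groups, while no MD + PE library reached MD + Veh. Fasn fell by 1.58 on the log2 scale (SE 0.28, 2.99-fold lower, adjusted p = 0.00359) with PE on the CD, fell by 1.37 on the log2 scale (SE 0.28, 2.59-fold lower, adjusted p = 0.00224) with the MD and fell by 1.47 on the log2 scale (SE 0.27, 2.77-fold lower, adjusted p = 0.00831) with PE on the MD. From CD + Veh to MD + PE it was 7.17-fold lower (SE 0.29 on the log2 scale).

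Scd1 was the exception to the diet effect. It was at 21679, 22395, 19874 and 33078 CPM in CD + Veh and 23042, 31582, 24671, 25475 and 22771 CPM in MD + Veh, and these 2 groups overlapped over most of their range. It was at 11308, 16009.9, 11926, 7212 and 11624 CPM in CD + PE and 10167, 12733, 8589.8, 11017 and 8508 CPM in MD + PE, and these overlapped too, below every vehicle library. The log2 fold change was 0.073 with the MD (95% confidence interval -0.34 to 0.49, adjusted p = 0.844) and -0.19 between the PE groups (interval -0.58 to 0.20, adjusted p = 0.61). Its sign in the first of these turned with the clock score as a covariate (-0.33) and without CD + Veh replicate 3 or MD + Veh replicate 2. With PE it fell by 1.06 on the log2 scale (SE 0.20, 2.09-fold lower, adjusted p = 0.00526) on the CD and fell by 1.32 on the log2 scale (SE 0.19, 2.5-fold lower, adjusted p = 0.00121) on the MD. Scd1 was number 2 of 13597 genes by CPM in CD + Veh and took 0.671% to 3.32% of a library's counts. It has close copies, Scd2, Scd3 and Scd4, so the split of reads among them is uncertain.

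Scd1 per Fasn was 8.67, 7.49, 9.28 and 9.06 in CD + Veh and 19.5, 29.6, 27.3, 28 and 16.5 in MD + Veh. It was 9.84, 11.5, 23.1, 8.16 and 15 in CD + PE and 17, 24.5, 34.7, 31.5 and 33.4 in MD + PE. CD + Veh was tight and low, MD + Veh lay wholly above it, and CD + PE overlapped both. The ratio was chosen after seeing the data and not tested.

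Elovl6 was at 508, 466, 351 and 849 CPM in CD + Veh and 137, 206, 123, 149 and 192 CPM in CD + PE. It was at 105, 145, 128, 142 and 262 CPM in MD + Veh and 84.3, 111, 75.8, 76 and 76.9 CPM in MD + PE. MD + Veh replicate 5 stood well above the rest of its group, and MD + PE replicate 2 lay above the lowest MD + Veh library. Elovl6 fell by 1.75 on the log2 scale (SE 0.25, 3.37-fold lower, adjusted p = 0.00107) with PE on the CD, and fell by 1.8 on the log2 scale (SE 0.25, 3.48-fold lower, adjusted p = 9.71e-05) with the MD. With PE on the MD the log2 fold change was -0.88 (SE 0.24), which missed the threshold in edgeR (adjusted p = 0.0663) and passed it in DESeq2 (adjusted p = 0.0127). Between the PE groups, the MD call of Elovl6 (-0.93, adjusted p = 0.0236) was lost without CD + PE replicate 5 or MD + PE replicate 3, 4 or 5, up to an adjusted p of 0.0598.

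Thrsp, the induced spot protein, had the largest fall of the 10 with PE on the CD. It was at 1339, 1648, 908 and 1295 CPM in CD + Veh, 305, 365, 183, 374 and 345 CPM in CD + PE, 403, 302, 342, 471 and 991 CPM in MD + Veh and 220.5, 172, 123, 137 and 189 CPM in MD + PE. MD + Veh replicate 5 lay within the CD + Veh range, and the rest of MD + Veh overlapped CD + PE in range. CD + PE also overlapped MD + PE. Thrsp fell by 2.05 on the log2 scale (SE 0.30, 4.13-fold lower, adjusted p = 0.00107) with PE on the CD, fell by 1.37 on the log2 scale (SE 0.29, 2.59-fold lower, adjusted p = 0.00358) with the MD and fell by 1.57 on the log2 scale (SE 0.28, 2.98-fold lower, adjusted p = 0.00816) with PE on the MD. Between the PE groups its log2 fold change of -0.90 missed the threshold (adjusted p = 0.0584) in the fit of all 4 groups and passed it when only these 2 groups were fitted (adjusted p = 0.0267).

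**Figure D3:**
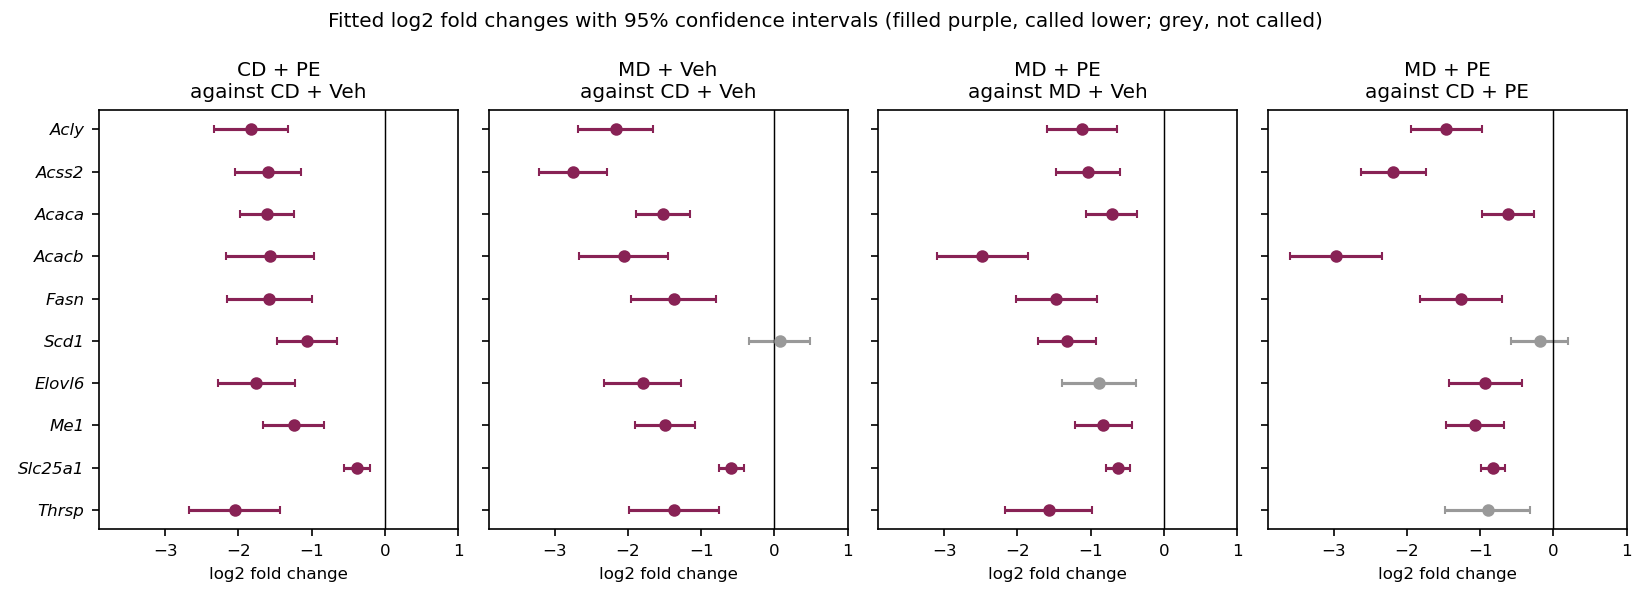
Fitted log2 fold change (points) with 95% confidence interval (bars) of each member in 4 comparisons; purple marks a gene called lower, grey a gene not called, and the vertical line is no change. All 10 points are left of the line in the first panel, and the grey points are Scd1 in the diet comparisons, Elovl6 for PE on the MD and Thrsp for the MD between the PE groups.

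Per kilobase of the canonical transcript, Scd1 was the highest member in every group, with 4828 ± 1189.5 CPM per kb (SD, n = 4) in CD + Veh, and Thrsp was next with 1016 ± 238. Acly (299 ± 129), Fasn (261 ± 60.6) and Acss2 (228 ± 80.6) followed within each other's spread. Me1 (169 ± 55.6) and Slc25a1 (141 ± 21.1) came after them, then Elovl6 (88.6 ± 34.9), and the carboxylases were lowest and alike, with 46.6 ± 15 for Acaca and 43.7 ± 13 for Acacb. In MD + PE the order had changed, with Slc25a1 at 60.9 ± 4.74 above Fasn at 36.5 ± 14.6, Me1 at 33.9 ± 4.62 and Acly at 30.6 ± 3.82. Acss2 stood at 16.6 ± 1.52, and Acacb, at 1.88 ± 0.652 CPM per kb, was now well under Acaca at 9.93 ± 1.0.

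Whether PE acted differently on the MD than on the CD was asked with the interaction term, in which a positive value is a smaller fall on the MD. No member was called lower, against 0.00735% of all genes, and none was called higher by edgeR. An unadjusted p under 0.05 was found for 5 members, and for 8.77% of all genes, with Acaca (0.90, SE 0.24), Elovl6 (0.87, SE 0.34) and Acly (0.70, SE 0.33) on the positive side. Acacb (-0.92, SE 0.40) and Slc25a1 (-0.24, SE 0.12) were on the negative side, towards a larger fall on the MD. DESeq2 called 1 member higher, Acaca, at an adjusted p of 0.0429, where edgeR gave 0.237. Of the 13872 genes to which DESeq2 gave an adjusted p, 28 were called higher. The intervals were wide, for Fasn -0.68 to 0.91 and for Scd1 -0.83 to 0.31 on the log2 scale, and do not show that the effect was alike on both diets. The library sets divide PE from vehicle fully on the CD and only in part on the MD. A difference between the sets therefore enters this term and cannot be told apart from it. With the set as a covariate, 42 genes were called lower, against 1 without it, and 0 members in both fits.

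The comparisons were also made within the library sets. MD + PE against CD + PE lies wholly in libraries 46 to 57, and there, with these groups alone in the fit, 9 members were among the 278 genes called lower. MD + Veh against CD + Veh within libraries 39 to 45 (3 against 4) gave 9 members among 840 genes called lower, with -2.73 for Acss2, -2.37 for Acly and 0.13 for Scd1. MD + PE against MD + Veh within libraries 46 to 57 (5 against 2) gave 0 called members and 0 called genes of all tested. Log2 fold changes there, given for 5 members, were -2.44 for Acacb, -2.1 for Thrsp, -1.52 for Fasn, -1.22 for Scd1 and -1.36 for Acly. The vehicle side held only MD + Veh replicates 4 and 5. Replicate 5 lay far above the rest of its group for Acly (443 CPM), Elovl6 (262 CPM) and Thrsp (991 CPM). With all 19 libraries the values were -1.57 for Thrsp and -1.12 for Acly. Unadjusted p was below 0.05 for all 10 members and for 991 of 13355 genes in this edgeR fit, and the members' adjusted p-values were 0.0682 to 0.252. With the library set as a term in the fit of all 19 libraries, 5 members were among 26 genes called lower for PE on the CD (Acly, Acaca, Elovl6, Me1 and Thrsp) and 5 among 33 for PE on the MD (Acly, Acacb, Scd1, Slc25a1 and Thrsp). This term rests on the 3 and 2 MD + Veh libraries of the 2 sets alone and assumes that the sets differ equally on both diets, so it does not separate the set from PE on the CD by itself. The log2 fold changes then were -3.11 for Thrsp and -1.7 for Fasn with PE on the CD, the second with an adjusted p of 0.123. Without the term Thrsp had -2.05. The Thrsp value with the term rests in part on MD + Veh replicate 5, whose 991 CPM lay far above the rest of its group.

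The members also varied together from mouse to mouse within a group. After group means were taken out of the log2 CPM, the correlation between 2 members had a median of 0.558 over the 45 pairs, and 28 pairs (62.2%) were above 0.5. Over all pairs of tested genes the median was -0.0013 and 4.02% were above 0.5. These are descriptions over 19 libraries, whose members share library and depth. Acly and Acss2 were the closest pair (r = 0.842), and Scd1 and Thrsp ran apart (r = -0.135). Against the mean of the other 9, the within-group r was highest for Acly (0.853) and Elovl6 (0.848) and lowest for Thrsp (0.465) and Slc25a1 (0.518). CD + Veh replicate 4 held the highest value of its group for all members but Thrsp.

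The genes most like the members over the 19 libraries, by Pearson's r with their mean z-score, were Acsl5 (0.975), which makes acyl-CoA, the glycolytic Eno1 (0.968), the lipid droplet protein Pnpla3 (0.963), Gpam (0.949), which starts glycerolipid synthesis, and Tkt (0.948) of the pentose phosphate pathway. Acsl5 stood at 597 ± 126 CPM in CD + Veh and 205 ± 18.3 CPM in MD + PE. Pnpla3 stood at 15.9 ± 7.74 CPM and 0.364 ± 0.329 CPM in the same 2 groups. Once group means were removed, the nearest were Acat2 (0.877), Pgd (0.831), Pstpip2 (0.819), Rdh11 (0.816) and Dhcr7 (0.807), with no gene in both sets of 5.

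Of the 9 other genes that supply NADPH or feed the pentose phosphate pathway, 3 were called lower with PE on the CD, 4 with the MD and 2 with PE on the MD, and none higher. Of all genes, 1.7%, 5.63% and 0.934% were called lower in these comparisons and 1.22%, 4.74% and 0.147% higher. The median log2 fold changes of the 9 genes were -0.27, -0.17 and -0.24. G6pdx, the first enzyme of that pathway, fell by 2.23 on the log2 scale (SE 0.37, 4.68-fold lower, adjusted p = 0.00269) with PE on the CD and fell by 3.05 on the log2 scale (SE 0.38, 8.29-fold lower, adjusted p = 3.09e-05) with the MD, and had a log2 difference of -0.28 (SE 0.40 and adjusted p = 0.802) with PE on the MD. Pgd, the next NADPH-forming step, fell by 0.94 on the log2 scale (SE 0.19, 1.92-fold lower, adjusted p = 0.00802) with PE on the CD. With the MD it fell by 0.80 on the log2 scale (SE 0.19, 1.74-fold lower, adjusted p = 0.00717). Rpia, a ribose phosphate isomerase, fell by 1.19 on the log2 scale (SE 0.22, 2.28-fold lower, adjusted p = 0.00114) with the MD, and Taldo1, a transaldolase, fell by 0.39 on the log2 scale (SE 0.069, 1.31-fold lower, adjusted p = 0.00773) with PE on the MD.

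Of 17 other elongation and desaturation genes, 15 were tested. With PE on the CD 2 were called lower and 2 higher, with the MD 4 lower and 2 higher, and with PE on the MD 9 lower and none higher, beside the shares of all genes just given, with medians of -0.15, -0.16 and -0.43. Cyb5r3, the reductase of the desaturase electron chain, fell by 0.75 on the log2 scale (SE 0.083, 1.68-fold lower, adjusted p = 7.56e-06) with the MD and fell by 0.59 on the log2 scale (SE 0.079, 1.5-fold lower, adjusted p = 0.000887) with PE on the MD. Tecr, which closes each elongation round, fell by 0.54 on the log2 scale (SE 0.083, 1.46-fold lower, adjusted p = 0.000209) with the MD. Elovl3, an elongase of long saturated chains, went the other way and rose by 1.26 (SE 0.31, adjusted p = 0.0261) with PE on the CD and by 1.78 (SE 0.31, adjusted p = 0.000762) with the MD on the log2 scale. Scd3, a close copy of Scd1, fell by 2.41 on the log2 scale (SE 0.35, 5.32-fold lower, adjusted p = 0.00107) with PE on the CD and had a log2 difference of -0.37 (SE 0.32 and adjusted p = 0.473) with the MD, with the same doubt on read sharing.

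Of the 21 regulators, 1 was called lower for PE on the CD, 3 lower and 2 higher for the MD, and 1 lower for PE on the MD, where 1.7%, 5.63% and 0.934% of all genes were called lower and 4.74% higher for the MD. Their medians were -0.14, -0.12 and -0.078. Scap, which escorts SREBP to its activation, fell by 0.65 on the log2 scale (SE 0.11, 1.57-fold lower, adjusted p = 0.00286) with PE on the CD and fell by 1.07 on the log2 scale (SE 0.11, 2.09-fold lower, adjusted p = 2.99e-06) with the MD. Insig2, which holds Scap back, rose by 1.36 on the log2 scale with the MD (SE 0.18, adjusted p = 4.49e-05). Insig1, its relative on the same list, went the other way, at 428 to 580 CPM in CD + Veh and 201 to 371 CPM in MD + Veh. Insig1 was named outside the naming rule, after its values were seen. Srebf2, which drives cholesterol synthesis, fell by 0.46 on the log2 scale (SE 0.090, 1.38-fold lower, adjusted p = 0.00173) with the MD and fell by 0.39 on the log2 scale (SE 0.087, 1.31-fold lower, adjusted p = 0.029) with PE on the MD. Usf2, an E-box factor, had a log2 difference of -0.38 (SE 0.068 and adjusted p = 0.000915) with the MD, just short of the minimum fold change. Srebf1 and Mlxipl, which encode SREBP-1 and ChREBP, are textbook drivers of the members and were named outside the naming rule, after their values were seen. Srebf1 had a log2 difference of -0.51 (SE 0.22 and adjusted p = 0.218) with PE on the CD, a log2 difference of 0.29 (SE 0.22 and adjusted p = 0.409) with the MD and a log2 difference of -0.30 (SE 0.21 and adjusted p = 0.535) with PE on the MD. Mlxipl had a log2 difference of -0.066 (SE 0.14 and adjusted p = 0.874), a log2 difference of -0.22 (SE 0.14 and adjusted p = 0.319) and a log2 difference of 0.18 (SE 0.13 and adjusted p = 0.571) in the same order. SREBP is also activated by cleavage of the protein, which was not measured here.

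Among 17 neighbours in citrate and acetyl-CoA metabolism, 1 was called lower and 1 higher with PE on the CD, 3 lower and 4 higher with the MD (5.63% and 4.74% of all genes), and none with PE on the MD by edgeR, where 7 had an unadjusted p below 0.05 (15.7% of all genes did) and DESeq2 called 1. Acat2, a cytosolic thiolase of sterol synthesis, fell by 1.43 on the log2 scale (SE 0.17, 2.7-fold lower, adjusted p = 2.11e-05) with the MD, while Slc25a10, the dicarboxylate carrier, rose by 0.85 (SE 0.12, adjusted p = 0.000103). Mpc1, part of the pyruvate carrier, rose by 0.62 with PE on the CD (SE 0.11, adjusted p = 0.00326), and Slc25a11, the oxoglutarate carrier, fell by 0.38 on the log2 scale (SE 0.084, 1.3-fold lower, adjusted p = 0.00449) with the MD. The separate mitochondrial fatty acid synthesis pathway had 7 of 8 genes tested, and none was called by edgeR or DESeq2 or had an unadjusted p below 0.05 in any of the 3 comparisons, with medians of -0.086, 0.034 and -0.069. Its lowest adjusted p was 0.341, with the MD for Ndufab1, the acyl carrier protein.

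**Figure D4:**
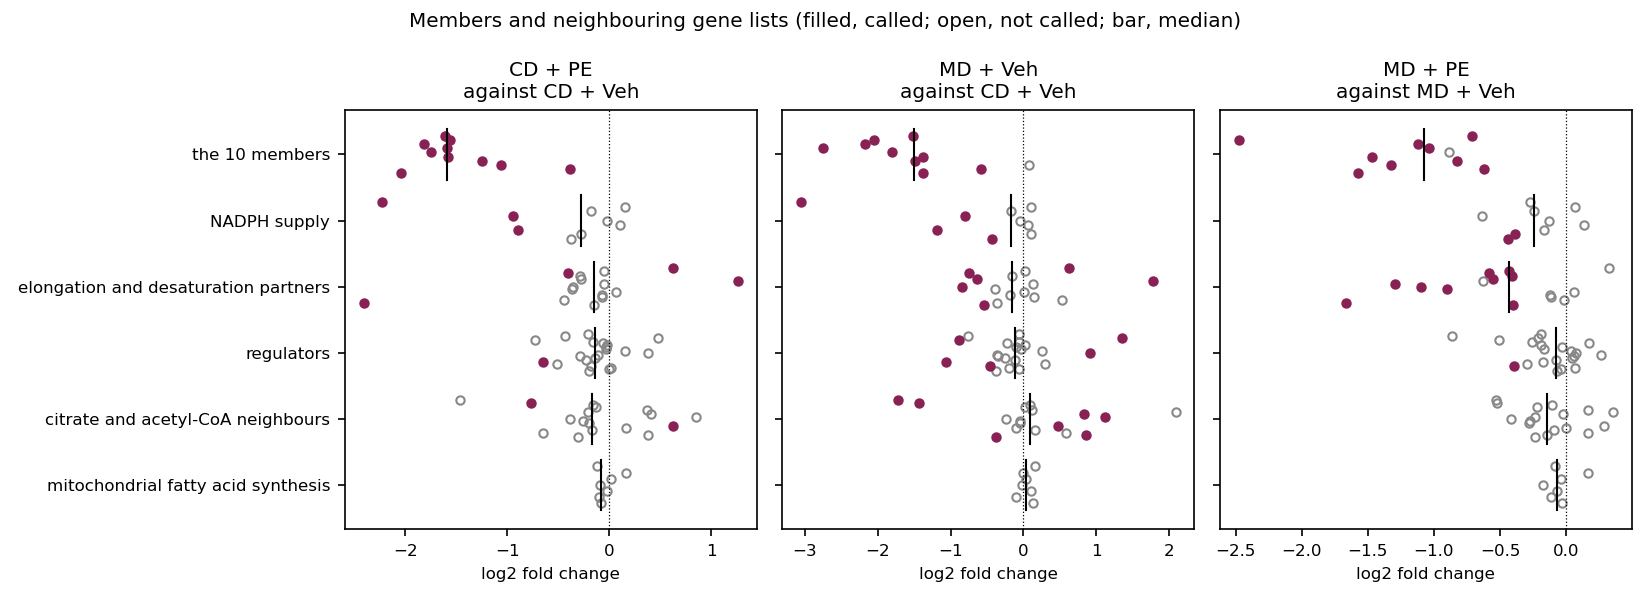
Log2 fold change of each tested gene of the 10 members and of 5 neighbouring gene lists in 3 comparisons; filled points are called, open points are not, and the black bar is the median of the list. The members' medians are -1.59, -1.51 and -1.08, while those of the 5 lists lie between -0.43 and 0.086.

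A score of circadian clock genes, whose transcripts cycle through the day, was read beside the members. The clock score is the mean log2 CPM of Bmal1, Clock, Npas2, Nfil3 and Cry1 less that of Per1, Per2, Per3, Dbp, Tef, Hlf, Nr1d1, Nr1d2 and Ciart, and all 14 genes were tested. It was -3.46 ± 0.55 (SD, n = 4) in CD + Veh and -0.86 ± 0.75 in MD + Veh. With PE it was -1.66 ± 1.34 on the CD and -1.06 ± 0.67 on the MD (n = 5 each). CD + PE differed from CD + Veh by 1.8 on the log2 scale (exact two-sided permutation p = 0.0317) and MD + Veh from CD + Veh by 2.6 (exact p = 0.00794). Gene by gene, 2 of the first 5 genes were called higher in CD + PE than in CD + Veh, against 1.22% of all genes. None of the other 9 was called by edgeR or DESeq2, and 4 of these had an unadjusted p below 0.05, as did 17.5% of all genes. In MD + Veh against CD + Veh, 5 of the 5 were called higher and 5 of the 9 lower, against 4.74% and 5.63% of all genes. For the score, MD + PE differed from MD + Veh by -0.199 (exact p = 0.69). With the score as a covariate, the genes called lower held 9 members among 137 for PE on the CD and 8 among 207 for the MD. They held 9 among 117 for PE on the MD and 8 among 364 for the MD between the PE groups. The calls lost were Slc25a1 for PE on the CD (adjusted p = 0.0558) and Thrsp for the MD (adjusted p = 0.166). The CD + Veh scores (-4.20 to -2.86) did not overlap those of CD + PE (-2.84 to 0.54) or MD + Veh (-1.92 to -0.090). The covariate therefore rests on slopes within groups, and this fit cannot tell the score apart from PE on the CD or from the MD.

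**Figure D5:**
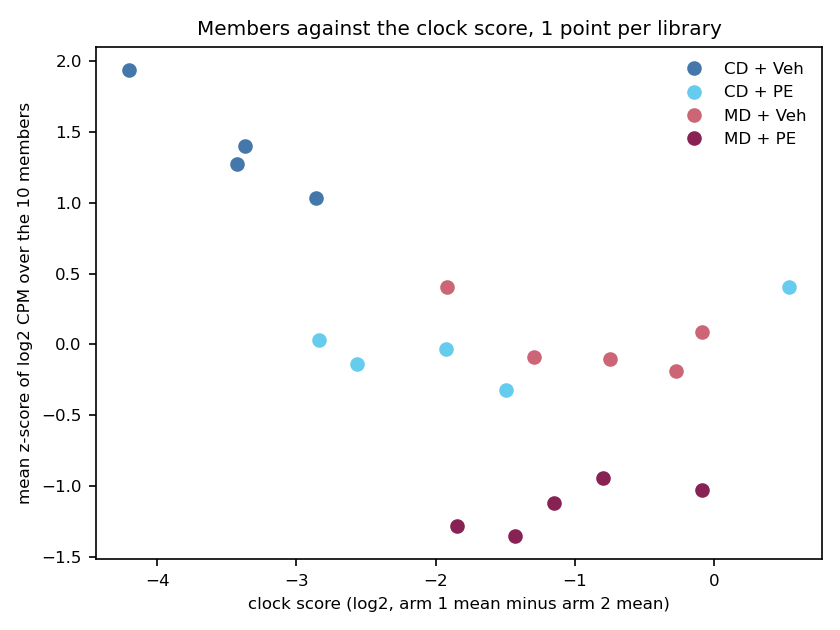
Mean z-score of log2 CPM over the 10 members (vertical) against the clock score (horizontal, log2), with 1 point per library. The 4 CD + Veh libraries sit at the left and top, CD + PE and MD + Veh share a middle band near 0, and the 5 MD + PE libraries form the lowest band, at clock scores that MD + Veh libraries also show.

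Markers of other cells that also make fat were read beside the members. Of 8 adipocyte genes 4 passed the filter, and the list summed to 24.4 to 36.2 CPM in CD + Veh and to 44.1 to 99.4 CPM in MD + Veh. With PE the sum came to 25.7 to 31.1 CPM on the CD and 47.9 to 124 CPM on the MD. The defining Adipoq and Lep were at 0 in most libraries and reached 4.18 and 3.04 CPM at most, in MD + Veh. Of the 4 tested genes, 3 were called higher and none lower with the MD, against the direction of the members, where 4.74% of all genes were called higher. Fabp4, Cidec and Pparg had means of 7.15, 1.64 and 6.97 CPM in CD + Veh and 17.1, 18.1 and 13.0 CPM in MD + Veh. Lipe was at 14.3 and 13.7 CPM in these groups. Bulk tissue does not show which cells held these transcripts. None of the 8 hepatocyte genes was called with PE on either diet by edgeR or DESeq2, with 2 at an unadjusted p below 0.05 on each diet, where 17.5% (CD) and 15.7% (MD) of all genes were. With the MD 3 of the 8 were called lower, against 5.63% of all genes (median -0.36 on the log2 scale). The part of this shift in the members' values was not tested.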

How the data were processed

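Liver mRNA was sequenced from 19 mice in 4 groups of 4 or 5, taken from the sample labels. Poly(A) libraries were trimmed with fastp and quantified with Salmon against GRCm39 by the authors, and the deposited table holds estimated counts per gene as whole numbers, so reads shared by close copies were split by the estimate. The dose of PE, its polymer and the diet composition come from the study's methods, and the labels name only diet and microplastics.

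Counts were filtered with filterByExpr by group, scaled by TMM and fitted in edgeR 4.0.16 (R 4.3.3) by quasi-likelihood over all 4 groups, with Benjamini-Hochberg adjustment over 13597 genes. SE is the log2 fold change divided by the square root of F. Called genes had an adjusted p below 0.05 and a log2 fold change of at least 0.38 in size. DESeq2 1.42.0, other scalings and filters, covariates and left-out libraries were alternatives. CPM are TMM-normalized. The fit was tested on simulated data. Depth was 10398820 to 15456729 counts per library.

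The members and gene lists were chosen with earlier results of these data known. In each neighbouring list, up to 4 genes with the lowest adjusted p in 3 comparisons were named, and Insig1, Srebf1, Mlxipl and the ratios were chosen after values were seen. The promoter of 1 member is not reported here. P-values measure the spread between mice that shared cages by group.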

Additional observations from a re-analysis of the deposited data

Results flagged for a closer look

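A library lay far from the rest of its group, by Dixon's test of the gap against the group's range, in 5 of the 40 combinations of member and group tested, where chance gives about 1 in 20. MD + Veh replicate 5 was high for Acly at 443 CPM, for Elovl6 at 262 CPM and for Thrsp at 991 CPM. The same library had the lowest clock score of its group, -1.92, and the part of this in the members' values was not tested. MD + PE replicate 2 was high for Elovl6 at 111 CPM, and MD + Veh replicate 4 was low for Slc25a1 at 157 CPM.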

How the results depend on the processing

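Over 1640 alternative fits of a member's fold change, 1563 kept their direction and side of the threshold, 58 lost the call, 11 gained it and 8 turned sign. With the library set as a covariate, the genes called lower numbered 26 for PE on the CD, 33 for PE on the MD, 591 for MD + PE against CD + Veh and 42 for the interaction, and the members 5 and 5 for PE on the CD and on the MD. Within libraries 46 to 57, a fit chosen after seeing the data, PE on the MD gave 0 genes and 0 members. With the clock score the genes numbered 137 for PE on the CD, 207 for the MD, 715 for MD + PE against CD + Veh and 0 for the interaction. DESeq2 called 216 genes for PE on the MD and 53 for the interaction, a fit of only MD + PE and MD + Veh called 64, and dropping the minimum fold change gave 624 for the MD between the PE groups. The cause of these shifts was not tested.

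Leaving out each library in turn gave 111 to 230 genes for PE on the CD, 536 to 813 for the MD, 52 to 199 for PE on the MD, 315 to 498 for the MD between the PE groups, 903 to 1199 for MD + PE against CD + Veh and 0 to 3 for the interaction. Members called were 9 to 10, 9, 5 to 10, 6 to 9 and 10 in the first 5 of these. The 5 members for PE on the MD came without MD + PE replicate 4. The gene count moved by over 1.5 times for PE on the CD when CD + Veh replicate 4 (111) was left out, or CD + PE replicate 3 (153), and for PE on the MD without MD + Veh replicate 1 (72), 2 (76) or 4 (199) or MD + PE replicate 2 (77), 3 (52), 4 (69) or 5 (83).

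Scd1 for the MD turned to -0.33 with the clock score, -0.013 without CD + Veh replicate 3 and -0.016 without MD + Veh replicate 2, and its interaction to 0.070 with the clock score. The Fasn interaction turned to -0.040 without CD + Veh replicate 4, -0.042 without CD + PE replicate 3, -0.086 without MD + PE replicate 1 and -0.0079 without MD + PE replicate 2. Over all left-out libraries the first ran from -0.016 to 0.27 and the Fasn interaction from -0.086 to 0.30, and none of the turned values was called.

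The replicate numbers are shared between groups, but the 27 same-numbered pairs had a median residual correlation of 0.029 with 6 above 0.1, so they were not treated as pairs. With a replicate block the genes called lower numbered 254, 774, 153, 395 and 1174 in the order above and 31 for the interaction, and the members 9, 9, 9, 9 and 10.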
